A study of Bos taurus and Bos frontalis with 6 samples.

Results

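Of the 27270 genes in the deposited table, 63 stood at least 4-fold higher in the back muscle of Gayal than in that of Banna cattle in each of the 2 batches of libraries. They were chosen by their levels in these same libraries, as follows. Counts were scaled to the library total as CPM, the usual unit of level, and 0.1 was added before taking log2. Genes were kept if they had 10 or more counts in at least 3 of the 6 libraries, which left 14084. A kept gene was a member if the Gayal libraries exceeded the Banna libraries by 2 or more on this log2 scale in batch A and again in batch B. The species difference therefore chose these genes, and for the members it is given as a description and not as a test.

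The libraries, 3 of Gayal (Bos frontalis) and 3 of Banna cattle (Bos taurus), were made from the longissimus dorsi, the long muscle beside the spine. All are labelled as 3.5 ± 0.5 years old. The labels give no treatment, sex or rearing for any group, and do not say that the RNA came from single animals, so the spread between libraries may be partly technical. The libraries carry a batch letter in a deposited sample sheet, which does not say what it means. Batch A holds Gayal replicate 1 with Banna replicates 1 and 2, and batch B holds Gayal replicates 2 and 3 with Banna replicate 3. The sheet also lists a fibre class, coarse in every Banna and fine in every Gayal library, which cannot be told apart from species.

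The longissimus dorsi is built of long multinucleate fibres that contract by sliding actin and myosin filaments, with fat cells, connective tissue, vessels and nerves between them. Gayal is a hill bovine kept in a semi-wild state, and the series sets its beef quality against that of Banna cattle. RNA from a piece of muscle mixes all these cells, so fewer cells of a type and less RNA per cell cannot be told apart. The files list genes by Ensembl cattle identifiers without names, and 0 of them were found in the reference table. No function is therefore given for any member, and the labelled tissue was not checked against muscle markers. Members are referred to by their rank in the smaller of their 2 batch differences, and only the first 2 in that order are named by identifier.

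Library totals ran from 53979857 estimated counts in Gayal replicate 1 to 90313051 in Banna replicate 3. Over all genes, low values fell more often than other whole numbers on multiples of a step, which was 3.31 to 3.33 counts in batch A and 4 in batch B. Multiples of the step held 35.2% to 46.3% of the values from 1 to 60 in each library, and made up 25% to 30% of the whole numbers in that range. Over the members alone, with 12 to 28 such values a library, the share was 17.6% to 62.5% and not always raised. In the values below, steps are counts divided by this spacing and rounded, an approximate measure of the data behind a level.

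The 63 members were 0.447% of the kept genes. In batch A alone 426 genes (3.02%) were at least 4-fold higher in Gayal, and in batch B alone 320 (2.27%). The members were 14.8% of the first set and 19.7% of the second. The 2 batches share no library, but they share the count filter and the overlap is the rule itself, so it is a description. Of the 363 genes that were 4-fold higher in batch A but were not members, 181 also lay above 0 in batch B, with a median log2 difference of 0.0. Of the 257 that passed in batch B only, 132 lay above 0 in batch A. In the other direction 39 genes were at least 4-fold lower in Gayal in both batches (0.277%). A further 35 (0.2485%) were 4-fold higher in batch A and 4-fold lower in batch B, and 12 (0.0852%) showed the reverse.

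**Figure D1:**
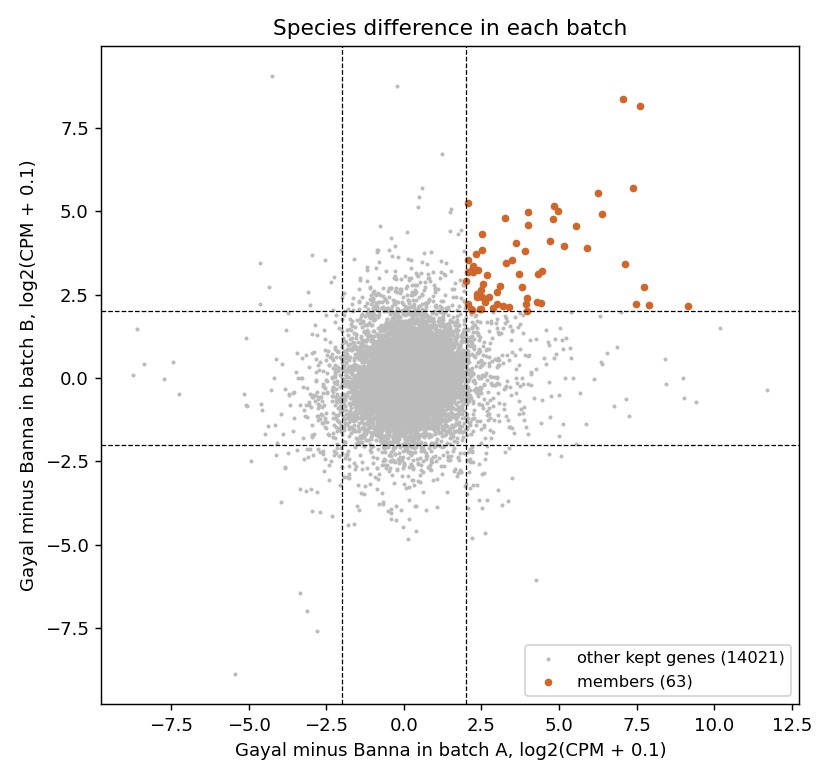
Each point is 1 of 14084 kept genes, with its Gayal minus Banna difference in log2(CPM + 0.1) in batch A across and in batch B upward; dashed lines mark differences of 2 and -2. The 63 members fill the upper right corner by construction, most of them close to its 2 edges, with 2 points near 7 to 8 on both axes.

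Members just inside the line differed little from genes just outside it. The 3 members nearest the threshold had smaller differences of 2.02, 2.02 and 2.04, and the 3 genes nearest below it had 1.99, 1.99 and 1.98. One of those outside was at 0 counts in all 3 Banna libraries and at 34, 28 and 18 counts in the Gayal libraries. Between 2 and 2.1 there were 11 members, and between 1.9 and 2 there were 13 genes. The list therefore has no natural gap at its lower end.

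Over the members the difference ran from 2.02 to 9.16 in batch A, with a median of 3.37, and from 2.02 to 8.37 in batch B, with a median of 3.13. Over all kept genes the medians were 0.133 and 0.00542. The smaller of the 2 differences was 3 or more in 23 members, 4 or more in 10 and 5 or more in 4. In 33 members the 2 batches gave differences within 1 log2 unit of each other. In 6 members they lay more than 3 units apart, and 5 of these had the larger difference in batch A. With TMM factors in place of library totals the members' differences fell by 0.02 to 0.14 in batch A and by 0.04 to 0.08 in batch B, and 56 of the 63 remained.

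In Gayal the members' median level was close to that of all kept genes, and in Banna it was far below it. The rule and the count filter favour genes that are low in Banna and counted in Gayal, so these levels are a description. Not all members were low in Banna, where 21 reached a mean of 1 CPM, against 50 in Gayal. Their mean level in Gayal ran from 0.502 to 281 CPM with a median of 6.87, where the median of all kept genes was 6.35. In Banna the members' means ran from 0 to 51.5 CPM with a median of 0.193, where all kept genes had a median of 5.80. A mean of 10 CPM was reached by 27 members in Gayal and by 5 in Banna, and a mean of 100 CPM by 4 in Gayal and none of the 63 in Banna. Added together, the members held 2045, 1182 and 1400 CPM in Gayal replicates 1 to 3 and 211, 187 and 139.8 CPM in Banna replicates 1 to 3. The members' data in Banna were thin: the median member had 3, 9 and 4 steps in Banna replicates 1 to 3 against 133, 52 and 74 in the Gayal replicates.

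**Figure D2:**
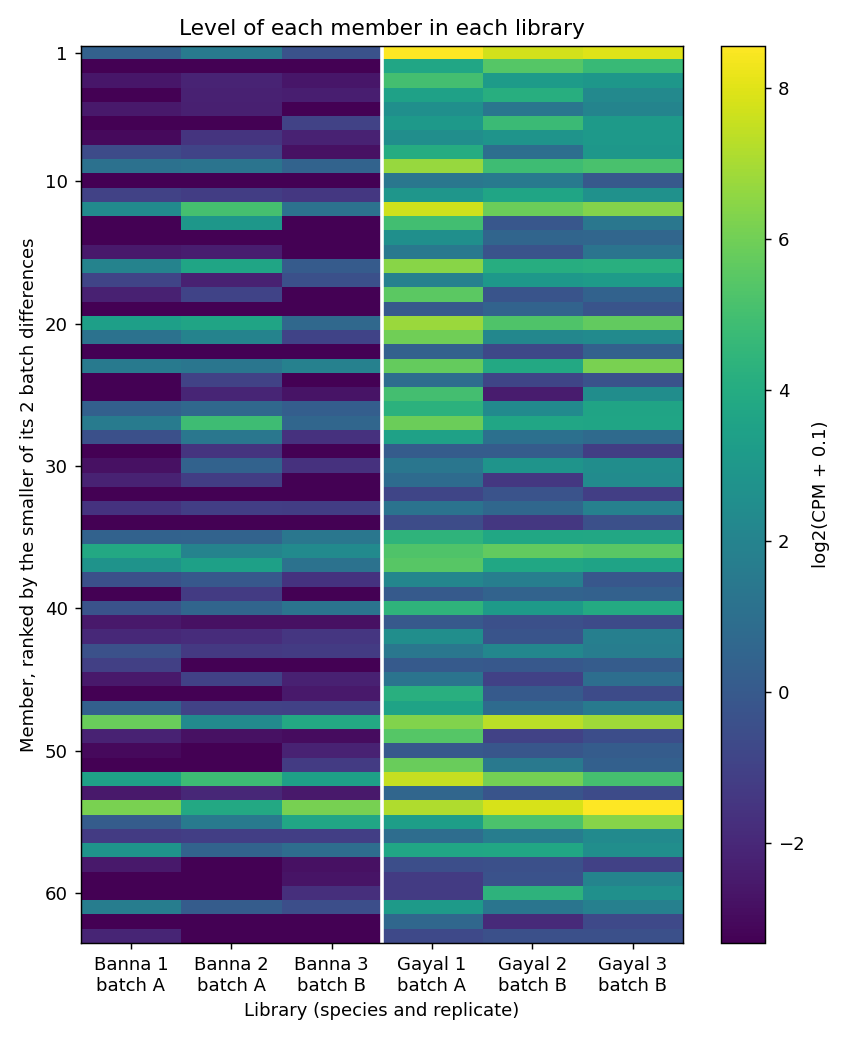
Rows are the 63 members in order of the smaller of their 2 batch differences, columns are the 6 libraries with species, replicate and batch letter, and colour is the level in log2(CPM + 0.1). Dark cells in the 3 Banna columns are values at or near 0, and several bright rows in the lower part, such as ranks 48 and 54, are well above 0 in both species.

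By the smaller of its 2 batch differences ENSBTAG00000049167 ranked first, and it was also the most abundant member in Gayal. It stood at 377, 212 and 256 CPM in Gayal replicates 1 to 3 and at 1.19, 2.78 and 0.709 CPM in Banna replicates 1 to 3. The Gayal values lay within 2-fold of each other, and every one was far above every Banna value. Its Gayal mean was 281 ± 85.4 CPM (SD, n = 3 libraries) and its Banna mean 1.56 ± 1.08 CPM (SD, n = 3 libraries), a ratio of 181. The Banna value rested on 121 steps in all, so the gene was counted in Banna muscle too. The log2 difference on log2(CPM + 0.1) was 7.62 in batch A and 8.17 in batch B.

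The second in this order was ENSBTAG00000049899, which had no counts in any of the 3 Banna libraries. It stood at 13.2, 42.6 and 25.5 CPM in Gayal replicates 1 to 3, from 710, 3310 and 1891 counts, so the batch A library was the lowest of the Gayal libraries. Against a floor of 3 steps per Banna library, 0.112 to 0.133 CPM, its Gayal mean of 27.1 ± 14.8 CPM (SD, n = 3 libraries) was at least 226-fold higher. This bound covers counting error only. Reads of both species were aligned to a cattle genome, and what part sequence divergence or a gene model has in such values was not tested.

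**Figure D3:**
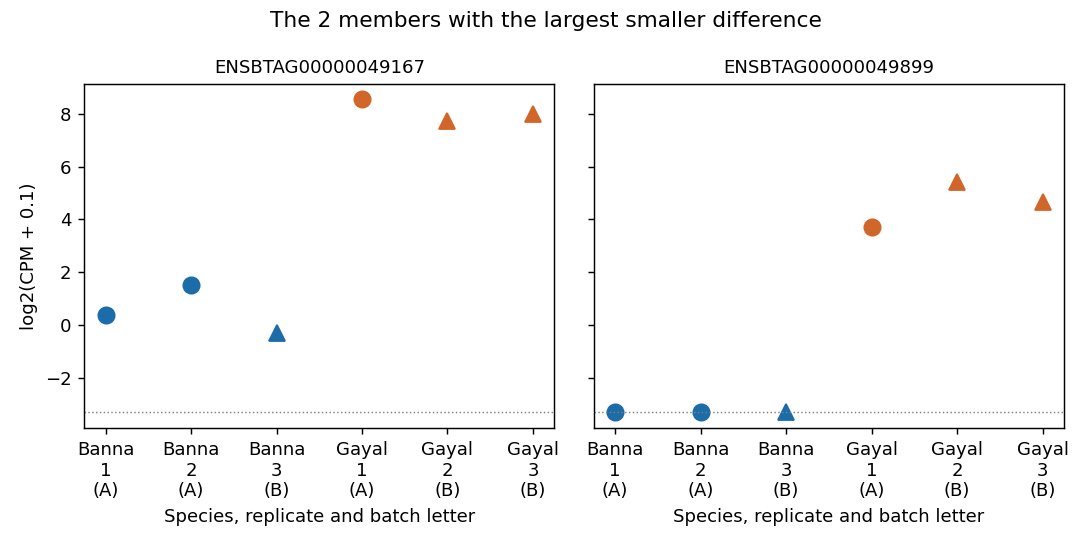
Level in log2(CPM + 0.1) of ENSBTAG00000049167 and ENSBTAG00000049899 in each library; circles are batch A, triangles batch B, blue is Banna and orange Gayal, and the dotted line is the value of a gene at 0. The Gayal points of the first gene sit around 8 and those of the second spread from about 3.7 to 5.4, while all Banna points of the second lie on the dotted line.

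Ranks 3 to 9 were likewise low in every Banna library. Rank 3 stood at 32.2, 9.18 and 7.81 CPM in Gayal replicates 1 to 3 and at 0.126 CPM or less in each Banna library. From 7 Banna and 848 Gayal steps, the ratio of pooled steps per library total was 169, with a 95% exact interval of 81.6 to 421. Rank 4 stood at 11.1, 17.5 and 4.79 CPM in Gayal against 0, 0.115 and 0.0997 CPM in Banna, a pooled ratio of 170.0 (interval 72.5 to 525) from 5 Banna steps. These intervals are wide because the Banna side holds so few steps, and they cover counting error only, not the spread between libraries.

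Rank 5 stood at 5.87, 2.46 and 4.01 CPM in Gayal and had 5 steps in Banna in all. Rank 7 was the most even of these in Gayal, at 5.69, 7.07 and 8.58 CPM, against 0.0224, 0.241 and 0.122 CPM in Banna, a pooled ratio of 54.2 (interval 29.2 to 114). Rank 9 was well counted on both sides, at 107, 28.8 and 35.7 CPM in Gayal and 2.09, 2.27 and 1.27 CPM in Banna, and from 144 Banna steps its pooled ratio was 28.8 (interval 24.3 to 34.2). Among the members of rank 3 to 9 this one had the most Banna steps.

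Zeros in Banna were common among the members. Of the 63, 8 were at 0 in all 3 Banna libraries, 11 in 2 of them, 8 in 1 and 36 in none, while no member was at 0 in a Gayal library. The pseudocount of 0.1 CPM thus sets the size of many of these differences. A gene at 0 in all Banna libraries passed the filter only with 10 or more counts in each Gayal library. The filter and the rule leave little room for a 0 in Gayal, so the contrast of zeros is a description. The 8 members without Banna counts had Gayal means of 0.502 to 27.1 CPM with a median of 0.971, and against the floor they were at least 4.19-fold to 226-fold higher. Only 3 of them, the members of rank 2, 10 and 14, exceeded a bound of 10. Over all kept genes 11 were at 0 in every Banna library and 15 in every Gayal library. A further 3 members had between 1 and 3 Banna steps in all, and 25 members had over 30. In 13 members some Gayal library held fewer than 10 steps, and the lowest held 2. With the 8 members at their bounds, the median ratio of species means was 10.

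Among the 10 most abundant members, those other than the first differed less than it did and were well counted in both species. Ranks 9 and 23 had ratios of species means of 30.5 and 15.8, above the median of 10 over the members, and the rest lay below it. Rank 54 was the second most abundant, at 142, 229 and 373 CPM in Gayal replicates 1 to 3 and at 71.0, 14.4 and 69.1 CPM in Banna replicates 1 to 3. Banna replicate 2 was nearly 5-fold below the other Banna libraries here, while the nearest libraries of the species, 142 and 71.0 CPM, were a factor of 2 apart. Rank 48 was also lowest in Banna replicate 2, at 78.5, 158 and 118 CPM in Gayal against 56.6, 5.08 and 14.5 CPM in Banna. Rank 36 was at 38.98, 52.7 and 45.3 CPM in Gayal, the narrowest range among the 10 most abundant members, and at 14.1, 3.84 and 5.12 CPM in Banna.

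Others of the abundant members were highest in Banna replicate 2 and in Gayal replicate 1. Rank 12 stood at 208, 58.9 and 82.5 CPM in Gayal and 5.09, 32.9 and 2.13 CPM in Banna. Rank 27 stood at 60.1, 13.0 and 12.6 CPM in Gayal and 3.01, 28.9 and 1.43 CPM in Banna, so the species overlapped in this gene although it met the rule in both batches. Rank 52 followed the same order, at 181, 66.7 and 32.6 CPM in Gayal and 10.9, 27.8 and 10.6 CPM in Banna. In 5 members Banna replicate 2 was at least 4-fold above both other Banna libraries with 10 or more steps, and in 4 of these Gayal replicate 1 was the highest Gayal library. The same count over all kept genes is not given here.

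All 3 Gayal libraries lay above all 3 Banna libraries in 54 of the 63 members, against 853 of all kept genes (6.06%). The rule nearly fixes this count. In 6 of the 9 members that overlapped, the highest Banna library was replicate 2, and without that library 60 of the 63 separated. Where a single Banna library was highest, it was replicate 2 in 52.7% of members and in 44.4% of kept genes.

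In edgeR's quasi-likelihood fit with species and batch as terms, all 63 members were among the 14112 genes tested. The fit called 6 genes higher in Gayal over the whole table (0.0425%) and 0 lower, at a Benjamini-Hochberg adjusted p under 0.05, with 1123 genes at an unadjusted p under 0.05, 614 of them lower in Gayal. DESeq2 called 228 genes lower and limma-voom 3, none of them members. The rule nearly fixes this absence, as it took only genes that were higher in Gayal. All 6 genes called higher by edgeR were members, those of rank 1, 2, 3, 9, 18 and 21. The rule used the same difference, so this overlap carries no support for it. For ENSBTAG00000049167 the fitted log2 difference was 7.87 (SE 0.458). The median fitted difference over the members was 4.19, against -0.03 over all tested genes. DESeq2 with the same terms called 51 members, of 432 genes called higher in Gayal (2.32%), and limma-voom 6 members, of 10 genes called higher (0.0709%). The 6 calls of edgeR became 0 with no batch term, 0 without Banna replicate 1 or Gayal replicate 1, 2 without Banna replicate 3 or Gayal replicate 3, and 3 without Gayal replicate 2.

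The difference between batches was not part of the rule, although the unequal batches tie the 2 estimates together, with a correlation of -0.33 between the species and batch terms set by the design alone. The batch results below are therefore not independent of how the members were chosen. With species in the fit, edgeR called 8 members lower in batch B, where 6.89% of all tested genes were called lower, and 2 members higher, where 7.73% were called higher. Together they were 10 of 63, or 15.9%, against 14.6% of all tested genes, so the members' share lay near that of the whole table. The 8 and 2 calls of edgeR both became 0 without Banna replicate 3 or any 1 of the Gayal replicates. DESeq2 called 16 members lower, where 14.3% of genes were, and 3 higher, where 11.8% were. Limma-voom called 12 lower, where 7.82% were, and 1 higher, where 8.86% were. The median batch term was -1.05 over the members and -0.09 over all tested genes. It was below 0 in 45 members and above 0 in 18.

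Rank 21 had the smallest p for batch. It stood at 64.0 CPM in Gayal replicate 1 against 4.49 and 5.10 CPM in Gayal replicates 2 and 3, and at 2.103 and 3.88 CPM in Banna replicates 1 and 2 against 0.432 CPM in Banna replicate 3. In both species the batch A libraries were the higher ones, and the log2 difference of batch B minus batch A was -3.29 (SE 0.361, edgeR adjusted p = 0.0145). Rank 18 was at 46.8 CPM in Gayal replicate 1, at 0.746 and 1.24 CPM in the other Gayal libraries, and at 0.424 CPM or less in Banna, with a batch term of -5.68 (SE 0.641, edgeR adjusted p = 0.0145). The abundant members of rank 9, 16, 20 and 37 were also lower in batch B, with batch terms of -1.29 to -2.66.

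The 2 members higher in batch B were those of rank 55 and 60. Rank 55 stood at 36.2 and 83.1 CPM in Gayal replicates 2 and 3 and 9.87 CPM in Gayal replicate 1, and at 12.9 CPM in Banna replicate 3 against 0.984 and 2.84 CPM in Banna replicates 1 and 2. Its Banna batch B library thus lay above its Gayal batch A library, and its batch term was 2.68 (SE 0.453, edgeR adjusted p = 0.0195). Rank 60 was at 20.5 and 6.15 CPM in the batch B Gayal libraries and at 0.315 CPM in Gayal replicate 1. In each of the 10 called members the batch A libraries of each species lay on 1 side of its batch B libraries. The calls rest on the same values and nearly fix this, so it is a description. In rank 49 the Banna side held only 3, 1 and 1 steps.

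**Figure D4:**
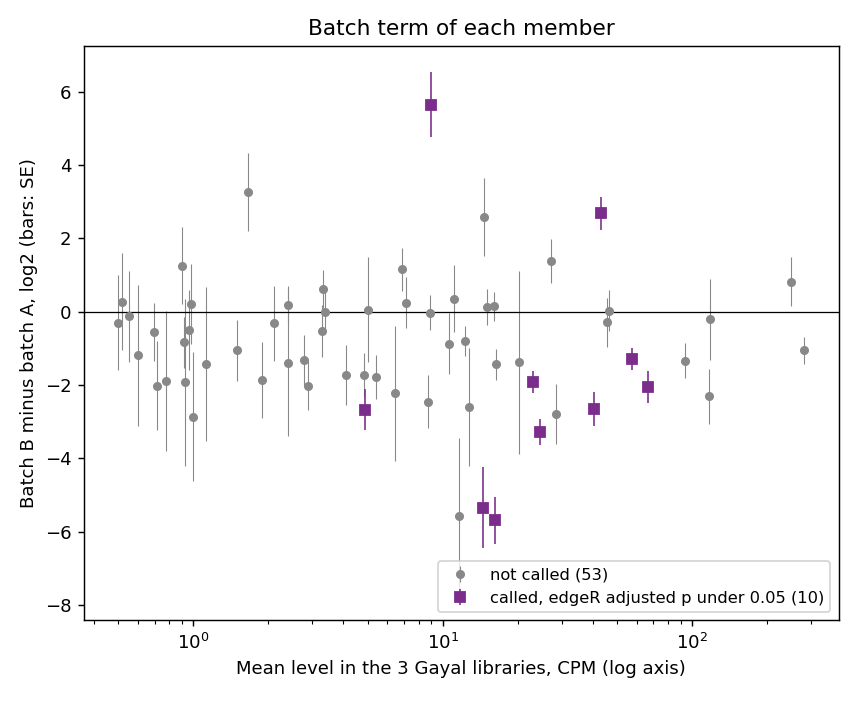
Batch B minus batch A log2 difference of each of the 63 members, from the edgeR fit with species and batch, against the member's mean level in the 3 Gayal libraries in CPM on a log axis; bars are standard errors. Of the 10 called members (purple squares) 8 lie below 0 and 2 above, all at a Gayal mean of about 5 CPM or more.

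The 8 members at 0 in all Banna libraries can show no batch direction in Banna. On the scale of the rule, 28 of the other 55 members (50.9%) were lower in batch B in both species, where 38.3% of kept genes above 0 in some Banna library were, and 9 (16.4%) were higher in both, where 35.1% were. The members' median was -0.69 for Gayal batch B minus batch A and -0.28 for the same in Banna. A test of whether the species difference itself differed between batches called 0 of 14112 genes in edgeR (0%), with 931 at an unadjusted p under 0.05, among them 8 members. Limma-voom also called 0, and DESeq2 called 3 members with a smaller species difference in batch B, where 0.885% of genes were called. Since the rule bounds the difference from below in both batches, these counts say nothing of how alike the batches are.

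The Gayal libraries lay further apart in the median member than in the median kept gene, a description with no test. The highest Gayal library exceeded the lowest by a median of 3.52-fold over the 63 members and 2.33-fold over the kept genes above 0 in all Gayal libraries. Between Gayal means of 1.77 and 18.4 CPM, the middle range of the members, it was 3.70-fold over the 31 members and 2.24-fold over the 5912 such kept genes. In 39 members the 3 Gayal libraries lay within 4-fold, and in 10 they were more than 10-fold apart. Gayal replicate 1 was the highest Gayal library in 34 of the 63 members (53.97%), and in 44.4% of kept genes. It was the highest by at least 8-fold over both others in 6 members, or 9.52%, against 3.80% of kept genes, and neither other Gayal library was so in any member. The share of kept genes was found for Gayal replicate 1 only, so the counts for the other libraries have nothing to be set against. As 1 library makes up the Gayal side of batch A, a high value there helps a gene to meet the rule.

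Those 6 members were the ones of rank 13, 18, 21, 46, 49 and 51. Rank 49 stood at 42.5 CPM in Gayal replicate 1 and at 0.412 and 0.607 CPM in Gayal replicates 2 and 3, against 0.123, 0.0459 and 0.0332 CPM in Banna. Rank 51 stood at 57.1, 2.70 and 1.15 CPM in Gayal and at 0, 0 and 0.321 CPM in Banna. In batch B these 2 genes only just met the rule, at differences of 2.18 and 2.15. The widest range belonged to rank 25, at 32.6, 0.0901 and 5.50 CPM in Gayal replicates 1 to 3, where the second library lay below the 0.138 CPM of Banna replicate 2.

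Libraries of 1 species within 1 batch entered the rule only as their mean. A threshold on means of 1 or 2 libraries can still favour genes that vary between libraries, so the gaps between them are a description and carry no support for the species difference. Gayal replicates 2 and 3, both of batch B, differed by a median of 0.683 in absolute log2(CPM + 0.1) over the 63 members and 0.438 over all kept genes. Within the middle range of Gayal means the medians were 0.793 over 31 members and 0.433 over 5958 kept genes. The 2 libraries were at least 4-fold apart in 6 of the 63 members (9.52%) and in 4.49% of all kept genes. Banna replicates 1 and 2, both of batch A, differed by a median of 0.631 over the members and 0.551 over all kept genes, and were at least 4-fold apart in 10 members (15.9%) against 5.79%. The Banna values are not matched in level, as the members were low in Banna.

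**Figure D5:**
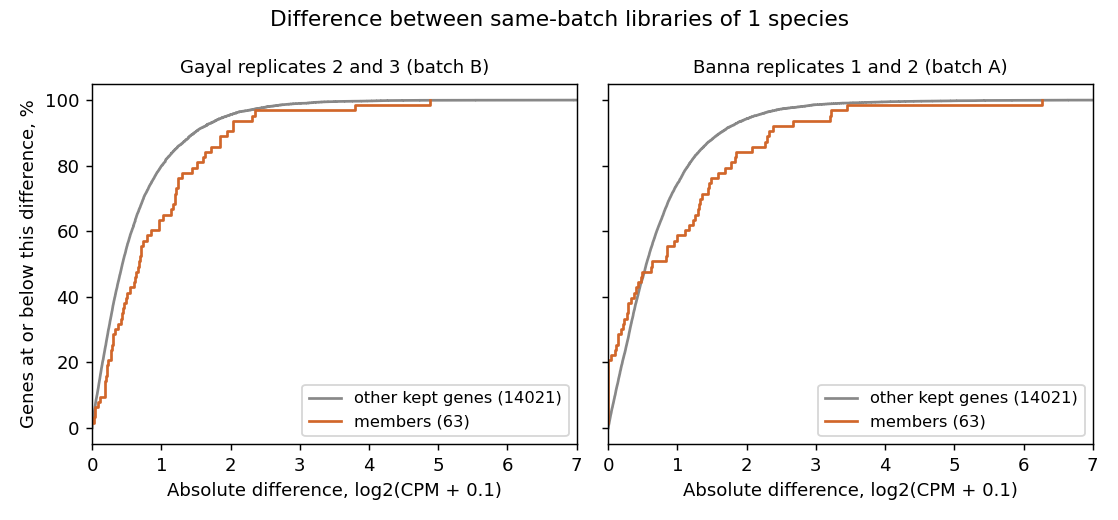
Share of genes, in percent, whose 2 same-batch libraries differ by no more than the value on the horizontal axis, in absolute log2(CPM + 0.1), for Gayal replicates 2 and 3 and for Banna replicates 1 and 2. The members' line (63 genes, orange) lies to the right of that of the other kept genes (14021, grey) over most of the range; members at 0 in both Banna libraries make it start above 0% in the Banna plot.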

How the data were processed

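Longissimus dorsi RNA was sequenced in 3 Gayal and 3 Banna libraries. Alignment with HISAT2 2.0.4 and the build ARS-UCD1.2 are named in the submitters' processing notes. For the counting program, the annotation and strand, the status is "not given in the sources used here". The deposited table holds estimated counts as whole numbers, 53979857 to 90313051 per library, with no scaling for depth; rounding left them unchanged. They were taken as estimates because low values fall more often on multiples of a step, found as the spacing with the largest excess of genes among values up to 60.

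Members were found by the stated rule. The members and lists were chosen with earlier results of these data known. Species, batch and interaction terms were fitted over the whole table with edgeR 4.0.16 in R 4.3.3 (TMM, filterByExpr, robust quasi-likelihood F test, Benjamini-Hochberg, threshold 0.05). SE is the difference over the square root of F. Alternatives used DESeq2 1.42.0, run without the low-count filter, limma 3.58.1 with voom, other scalings and filters, a replicate block, and left-out libraries. The fits were also run on simulated counts, whose outcome is not given here, and no result above rests on it. Changes were simulated only in genes above a set mean level, with the spread taken from these same data. The rule for named genes took the most abundant members, those with the largest smaller difference and those called, and limits identifiers to 2 when no symbols match. The gene lists, positions, protein identities and promoter motifs planned were not analysed, for want of symbols.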

Additional observations from a re-analysis of the deposited data

How the results depend on the processing

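What causes these shifts was not tested. The fits that drop a library also hold fewer samples, and this was not separated from which library was dropped. The 63 members became 23 with a pseudocount of 1 CPM, 127 with 0.01 CPM, 23 at 8-fold and 116 at 3-fold. Dropping 1 library gave 43 to 73: 63 and 73 without Banna replicate 1 or 2 (57 and 54 of them among the 63), and 64 and 43 without Gayal replicate 2 or 3 (44 and 37 among the 63). Leaving out Banna replicate 3 or Gayal replicate 1 empties 1 side of a batch. The 6 members called higher in Gayal became 51 with DESeq2, 17 with no low-count filter, 3 when scaled by library totals, 3 at a threshold of 0.01, 0 with no batch term and 0 to 7 when 1 library was dropped. The 2 members higher in batch B became 1 with the stricter filter, 1 with limma-voom, 0 at a threshold of 0.01 and 0 to 2 when 1 library was dropped. The 8 lower became 16 with DESeq2, 0 at that threshold and 0 to 11 when 1 library was dropped. Members with a smaller species difference in batch B went from 0 to 3 with DESeq2. The fitted log2 difference of ENSBTAG00000049167 stayed between 7.42 and 8.27 over 15 alternatives, but its adjusted p did not stay under 0.05. In edgeR its adjusted p was 0.0086 in the main fit and 0.12 with no batch term. With a replicate block in place of the batch term its edgeR adjusted p was 0.44. The call of ENSBTAG00000049899 lay closer to the threshold. Its edgeR adjusted p was 0.043 in the main fit, 0.014 with no low-count filter, 0.056 when scaled by library totals and 0.14 with no batch term. For the same gene limma-voom gave an adjusted p of 0.064 and DESeq2 one of 2.8e-20. The 54 members with separated species became 54 with TMM and 55 to 60 when 1 library was dropped.

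With a replicate block beside species and batch, edgeR called 0 members higher in Gayal, 0 higher in batch B and 0 lower. With the block in place of batch it called 0 higher in Gayal. With the block, the terms use up most of the 6 libraries and leave little to estimate the spread, so these zeros say little. Across genes, libraries with the same number had deviations from their species means that correlated at 0.25, -0.45 and 0.28. Batch was left in these deviations. The correlation was above 0 where the same-numbered libraries shared a batch and below 0 where they did not. These values therefore cannot tell pairing by number from batch, and the labels give no sign of such pairing. Depth limits the low members: 11 had 3 or fewer Banna steps in all.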

Other observations

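The comparison here was chosen after the values were seen. Identifier numbers in the table are dense up to 22000, at 1217 to 1275 identifiers per 2000 numbers, and sparser beyond, with 301 in the next 2000. Of the 63 members, 33 (52.4%) had a number of 22000 or more, as had 20 of the 39 genes that were 4-fold lower in Gayal in both batches (51.3%) and 3533 of the 14084 kept genes (25.1%). Among genes with a mean of 1 CPM or more over the 6 libraries, the shares were 24 of 46 members (52.2%), 16 of 27 lower genes (59.3%) and 21.0% of kept genes. Among genes under 1 CPM they were 9 of 17 members (52.9%), 4 of 12 lower genes (33.3%) and 41.1% of kept genes. The members thus shared this feature with the genes that differed in the opposite direction, at levels of 1 CPM or more.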
